A study of Mus musculus with 4 samples.

Results

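The genes described here are the ligands, antagonists, coreceptor and transcription factors of Nodal signalling and of the primitive streak: Nodal, Gdf3, Tdgf1, Foxh1, Lefty1, Lefty2, Cer1, Eomes, Mixl1 and Gsc. The group was set by gene name, and its members were found by their gene symbol in the annotation of the array. All 10 of the 10 had a value, each from 1 probe set, among 22180 genes with a value. RNA came from P19, an embryonal carcinoma line of the mouse whose cells resemble early epiblast and differentiate in retinoic acid. Wild-type cells were set beside a single clone with 2 stable integrates, pBI-EGFP-FLAG-mCtcfl and pTA-N, called the Ctcfl line below. Ctcfl (BORIS) is a testis paralog of the insulator protein Ctcf, and in this Tet-Off system it is expressed once doxycycline is taken away. Each line was measured in ethanol vehicle (undifferentiated) and in 10 µM retinoic acid for 4 days, with 1 array for each of the 4 conditions. The Ctcfl line had been taken off 2 µg/ml doxycycline 2 days earlier in both states. For wild-type cells the sample characteristics give 2 µg/ml doxycycline, whereas the growth description gives normal medium. The line comparison therefore joins Ctcfl, the integrates, clonal origin and possibly doxycycline, which cannot be told apart. There were no replicates, so no single difference between 2 arrays has a test, and precision is limited by how few arrays there are.

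Nodal is a secreted signal of the TGF-beta family that keeps the epiblast in its state and then induces the primitive streak, the source of mesoderm and endoderm. It acts through activin receptors with the coreceptor Tdgf1 (Cripto), and the receptors activate Smad2 and Smad3, which bind DNA with partners such as Foxh1. Lefty1 and Lefty2 are themselves targets of the pathway and block the signal, so that they form a feedback loop, and Cer1 binds and inhibits Nodal outside the cell. Eomes, Mixl1 and Gsc are transcription factors that the signal turns on in the streak.

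Values are log2 signals, on which 1 unit is a factor of 2. Array medians lay between 6.95 and 6.96. As a guide to background, the 95th percentile of 1105 olfactory receptor genes lay between 6.82 and 6.95 on the 4 arrays, and a signal at or below it is called not clearly above background. As a guide to technical error, the log2 differences of 874 genes with several probe sets had a within-gene SD between 0.226 and 0.331. All 10 genes were past the filter, a signal of at least 6 on 1 array or more, with 18310 genes in all. Ctcfl itself read 7.86 and 10.41 in undifferentiated cells and 7.13 and 9.56 in retinoic acid, wild type first, so the labels of the lines were borne out by its signal. Pluripotency markers fit the labelled cell type in their mean, though not each on its own. The mean over 11 of them was 9.60 and 9.67 in undifferentiated wild-type and Ctcfl-line cells, and 8.37 and 8.44 after retinoic acid. Zfp42, at 6.12 to 6.46, was not clearly above background on any array. Esrrb at 6.99 to 7.18 and Klf4 at 7.53 to 7.68 were low on all arrays. The mean over 5 primitive endoderm markers was 7.81 and 7.84 without retinoic acid and 9.13 and 8.72 with it. Over 4 neural markers the means were 8.01 and 7.88, then 8.94 and 9.06, and over 5 fibroblast markers 7.51 and 7.13, then 8.42 and 7.74, in the same order. Not every marker followed its mean. With retinoic acid 0 and 2 primitive endoderm, 1 and 1 neural, and 2 and 1 fibroblast markers were lower, wild type first. Of the pluripotency markers 1 and 2 were higher. The near-equal means of the lines also joined pluripotency markers that differed between them. Nanog was log2 0.80 and 1.58 higher in the Ctcfl line without and with retinoic acid (averaged, adjusted p = 0.227 in limma). For Lin28a the same differences were log2 -0.04 and -0.98. Of the 11, 5 were higher and 6 lower in the undifferentiated Ctcfl line, and 6 and 5 in retinoic acid. Among fibroblast markers, Dcn differed by log2 4.69 and 2.91 with retinoic acid, and Thy1 by -1.49 and -0.82. The part of this change in cell state in the values below was not tested. Fewer cells of a type and less RNA per cell cannot be told apart in such samples. Of 4 blood markers, Ptprc was below log2 6 on all 4 arrays, Lyz2 read 5.97 to 6.45 and Csf1r 6.61 to 7.03. The fourth, Cd68, read 7.81 and 8.21 in undifferentiated wild-type and Ctcfl-line cells and 8.87 and 9.25 in retinoic acid (adjusted p = 0.0118 in limma), and the part of this in the values below was not tested.

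The promoters of Tdgf1, Eomes and Nodal are shown because the first pair fell with retinoic acid and the third did not pass the test, as given below. They come from RefSeq on build GRCm38.p6, whose promoter table matched 5 of the 10 genes (Cer1, Eomes, Gsc, Nodal and Tdgf1), and each is the 250 bases before the start of the gene, 5′ to 3′ on the gene's strand. Tdgf1 lies on the minus strand at chr9:110946159-110946408, Eomes on the plus strand at chr9:118477939-118478188 and Nodal on the plus strand at chr10:61417722-61417971. Capitals mark matches to any of the motifs searched.
Tdgf1: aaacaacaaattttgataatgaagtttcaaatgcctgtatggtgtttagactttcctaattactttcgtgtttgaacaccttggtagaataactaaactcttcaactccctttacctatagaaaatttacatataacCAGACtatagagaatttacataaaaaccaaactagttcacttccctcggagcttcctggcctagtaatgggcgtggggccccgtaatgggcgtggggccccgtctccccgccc
Eomes: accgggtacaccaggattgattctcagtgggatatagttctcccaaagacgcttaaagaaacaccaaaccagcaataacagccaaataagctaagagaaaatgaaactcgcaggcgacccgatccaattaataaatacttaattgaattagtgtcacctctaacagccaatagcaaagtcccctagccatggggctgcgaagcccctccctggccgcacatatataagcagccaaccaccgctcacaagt
Nodal: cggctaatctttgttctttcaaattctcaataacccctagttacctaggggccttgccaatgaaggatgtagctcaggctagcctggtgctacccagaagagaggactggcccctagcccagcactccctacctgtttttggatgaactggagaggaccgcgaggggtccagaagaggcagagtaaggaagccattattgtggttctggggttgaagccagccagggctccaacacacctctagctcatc
The motifs, searched on both strands, were AATNCACA for Foxh1, CAGAC and the palindrome GTCTAGAC for Smad proteins, AGGTGTNA for T-box factors such as Eomes, and AGGTCA repeated in the same direction after 5 bases for retinoic acid receptors. The motifs do not contain one another. CAGAC occurred in the windows of Tdgf1 and Cer1, in each at 1 position, 109 to 113 and 209 to 213 bases before the start. It is a common word: 42.2% of 32851 promoter windows of the same length held it. The windows of the 5 genes held no other match. AATNCACA was in 3.18% of all windows, AGGTGTNA in 2.68%, GTCTAGAC in 0.167% and the retinoic acid receptor repeat in 0.00913%.

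Of the ligands, Nodal was over 2-fold higher in the Ctcfl line in both states, without passing the test, and Gdf3 fell with retinoic acid. Nodal read 9.02 in undifferentiated wild-type cells, 9.32 in wild-type cells with retinoic acid, 10.36 in the undifferentiated Ctcfl line and 10.94 in the Ctcfl line with retinoic acid. Both arrays of the Ctcfl line were above both wild-type arrays. The difference between the lines was 2.52-fold without and 3.07-fold with retinoic acid, and these ranked 53rd and 24th from the top of 18310 genes. Averaged over the states in limma it was log2 1.48 ± 0.16 (SE) with an adjusted p of 0.0667, which does not pass. This limma fit sums a retinoic acid term and a line term, leaves 1 residual degree of freedom and counts unequal responses as error. Under the alternatives the adjusted p of Nodal lay between 0.034 and 0.0951, and it passed with quantile normalization of the arrays only. Retinoic acid differences of Nodal were log2 0.30 in wild type and 0.58 in the Ctcfl line (averaged, adjusted p = 0.158 in limma).

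Gdf3, a related ligand of pluripotent cells that also uses Tdgf1, read 10.89 and 9.89 in wild type without and with retinoic acid, and 11.33 and 10.05 in the Ctcfl line. The retinoic acid arrays were the lower ones in both lines, by log2 1.00 and 1.28. Gdf3 fell 2.20-fold on average (log2 -1.14 ± 0.16, SE, adjusted p = 0.0112 in limma). Its line differences of log2 0.43 and 0.15 did not pass (adjusted p = 0.597 in limma).

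Tdgf1 had the widest range of the 10 genes, 5.25 log2 units, wider than in all but 0.0218% of the genes past the filter. It read 9.78 and 11.33 in undifferentiated wild-type and Ctcfl-line cells, and 6.09 and 6.76 in retinoic acid. Both retinoic acid values were not clearly above background, so the size of the fall is a rough figure. It fell by 4.13 on the log2 scale (SE 0.23, adjusted p = 0.000571 in limma), which was the largest averaged decrease among the 10. The Ctcfl line was 2.93-fold higher in the undifferentiated state, the 32nd largest increase of 18310, whereas its log2 difference of 0.68 in retinoic acid is between signals not clearly above background. The averaged line effect did not pass (adjusted p = 0.278 in limma).

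Foxh1, the DNA-binding partner of the Smads, differed by less than 2-fold in every comparison, although 14.9% of all genes had a wider range over the 4 arrays. It read 10.65 and 10.23 in wild type without and with retinoic acid, then 11.09 and 10.72 in the Ctcfl line. The retinoic acid differences were log2 -0.43 and -0.38 and the line differences 0.44 and 0.49. Each of the 4 was larger than the probe-set SD of its comparison, but neither average passed (adjusted p = 0.168 for retinoic acid and 0.417 for the line in limma).

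**Figure D1:**
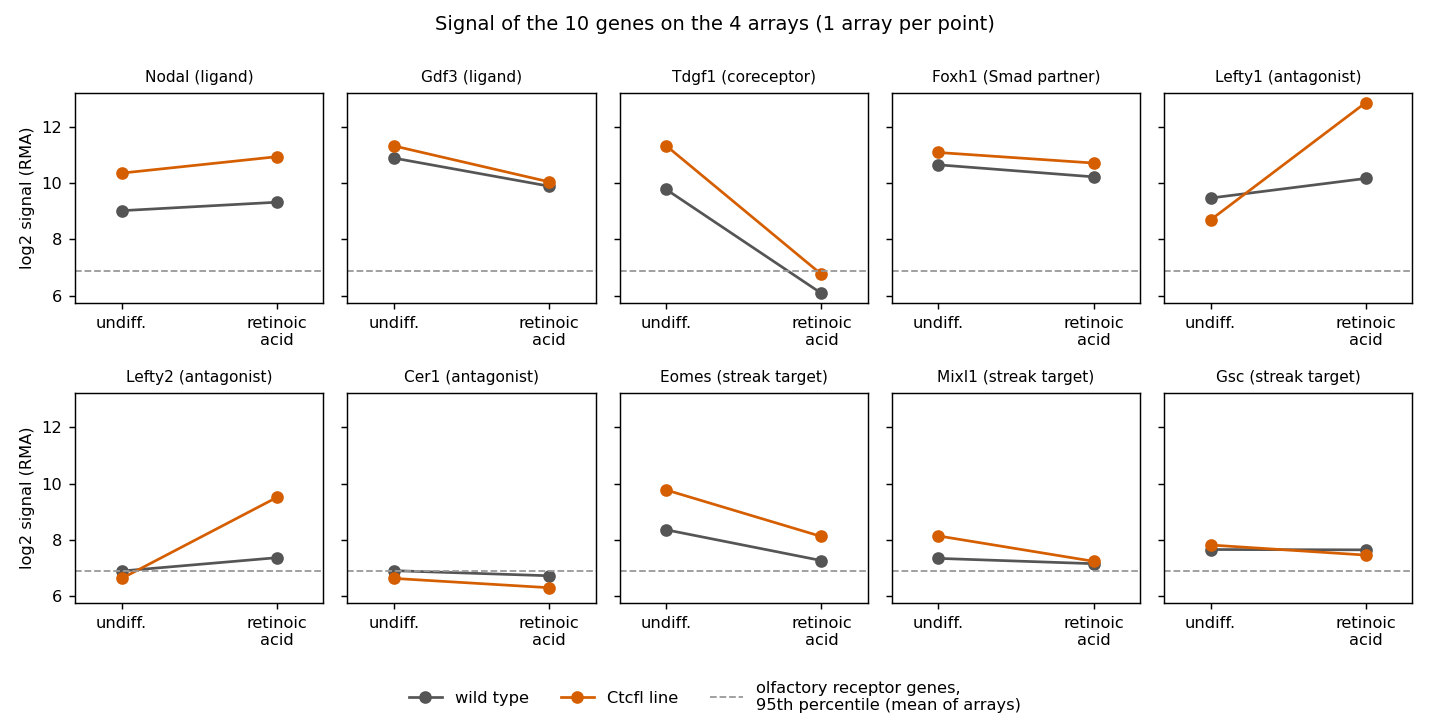
Log2 RMA signal (vertical axis) of the 10 genes in undifferentiated cells and in retinoic acid, with grey points for wild type, orange points for the Ctcfl line and 1 array per point; the dashed line is the mean over the arrays of the 95th percentile of olfactory receptor genes. Nodal differs by line in both states, Tdgf1 lies below the dashed line in retinoic acid in both lines, at 6.09 and 6.76, and Lefty1 and Lefty2 climb steeply in the Ctcfl line, to 12.87 and 9.51.

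Among the 10 genes, the antagonists Lefty1 and Lefty2 differed most between the lines in their response to retinoic acid. Lefty1 read 9.47 and 10.17 in wild type without and with retinoic acid, then 8.70 and 12.87 in the Ctcfl line. The Ctcfl line thus had both the lowest and the highest of the 4 values. Lefty1 was 1.62-fold higher with retinoic acid in wild type and 18.0-fold higher in the Ctcfl line. The difference of these responses, log2 3.47, was the largest of all 18310 genes. Lefty2 read 6.89 and 7.36 in wild type, then 6.63 and 9.51 in the Ctcfl line. Its undifferentiated values were not clearly above background, so its fold of 7.37 with retinoic acid in the Ctcfl line is a rough figure. The difference of responses of Lefty2, log2 2.41 and 5th from the top, rests on the same undifferentiated values and is as rough. Against wild type, the Ctcfl line in retinoic acid was log2 2.70 higher for Lefty1 and 2.14 higher for Lefty2, the 3rd and 8th of all genes. In undifferentiated cells the same comparison gave log2 -0.78 and -0.26.

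With 1 array per condition the difference of responses has no test. In the additive fit it counts as error, and the averaged retinoic acid effects of log2 2.43 ± 0.70 (SE) for Lefty1 and 1.68 ± 0.49 for Lefty2 did not pass (adjusted p = 0.0995 and 0.107 in limma). Their averaged line effects did not pass either (adjusted p = 0.693 and 0.592). Lefty1 and Lefty2 are near-identical paralogs, and how far their probe sets read each other's transcript is uncertain. Cer1, the third antagonist, read 6.90, 6.72, 6.63 and 6.30 in wild type without and with retinoic acid and in the Ctcfl line without and with it. All 4 values were not clearly above background, so the data hold no usable difference for it.

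Of the streak genes, Eomes fell with retinoic acid, Mixl1 passed no test or 2-fold limit, and Gsc had the narrowest range of the 10 genes. Eomes, the T-box factor that starts the mesoderm and endoderm programmes, read 8.36 and 7.26 in wild type without and with retinoic acid, then 9.77 and 8.12 in the Ctcfl line. It fell 2.59-fold with retinoic acid (log2 -1.37 ± 0.18, SE, adjusted p = 0.0101 in limma). In the Ctcfl line it was log2 1.41 higher in undifferentiated cells and 0.86 higher in retinoic acid, and the average of log2 1.14 did not pass (adjusted p = 0.195 in limma). Mixl1, a homeobox gene of the streak, read 7.34 and 7.15 in wild type, then 8.14 and 7.24 in the Ctcfl line, without and with retinoic acid. The undifferentiated Ctcfl line stood log2 0.80 above wild type, and the other 3 arrays lay within 0.19 log2 units of each other. Gsc, a homeobox gene of the organizer, read between 7.46 and 7.81, a range of 0.36, and 63.4% of all genes ranged more widely. The differences of Mixl1 and Gsc passed neither averaged test (adjusted p from 0.172 to 0.986 in limma).

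**Figure D2:**
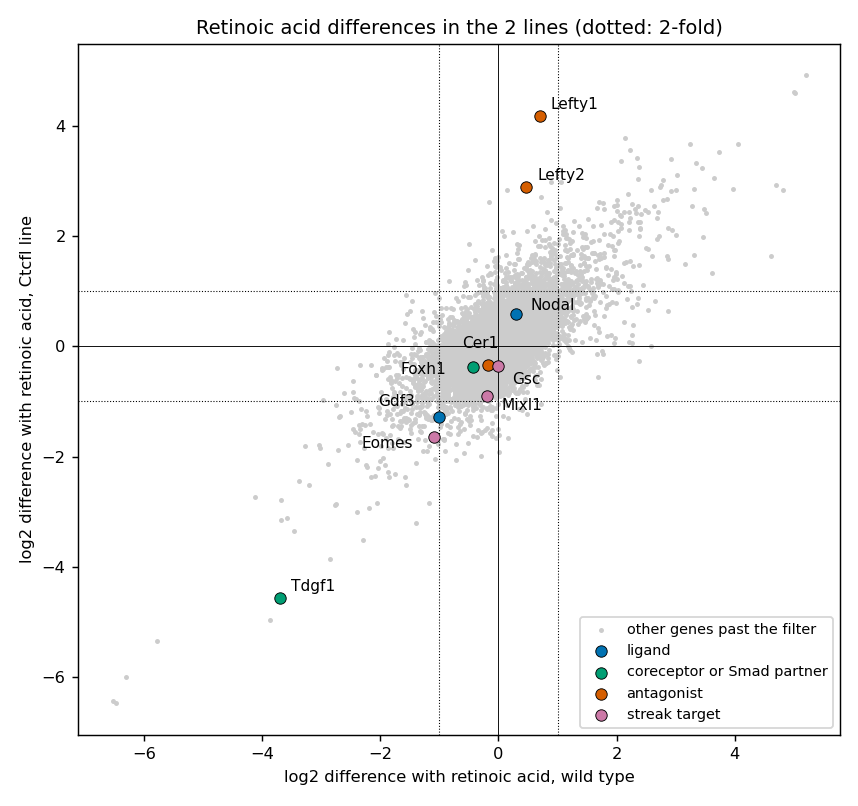
Log2 difference with retinoic acid in wild type (horizontal axis) against that in the Ctcfl line (vertical axis) for 18310 genes (grey) and the 10 genes coloured by role, with dotted lines at 2-fold. Tdgf1, Eomes and Gdf3 are lower in both lines, and Lefty1 and Lefty2 lie far above the cloud at 4.17 and 2.88 on the vertical axis, with 0.70 and 0.47 on the horizontal axis.

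**Figure D3:**
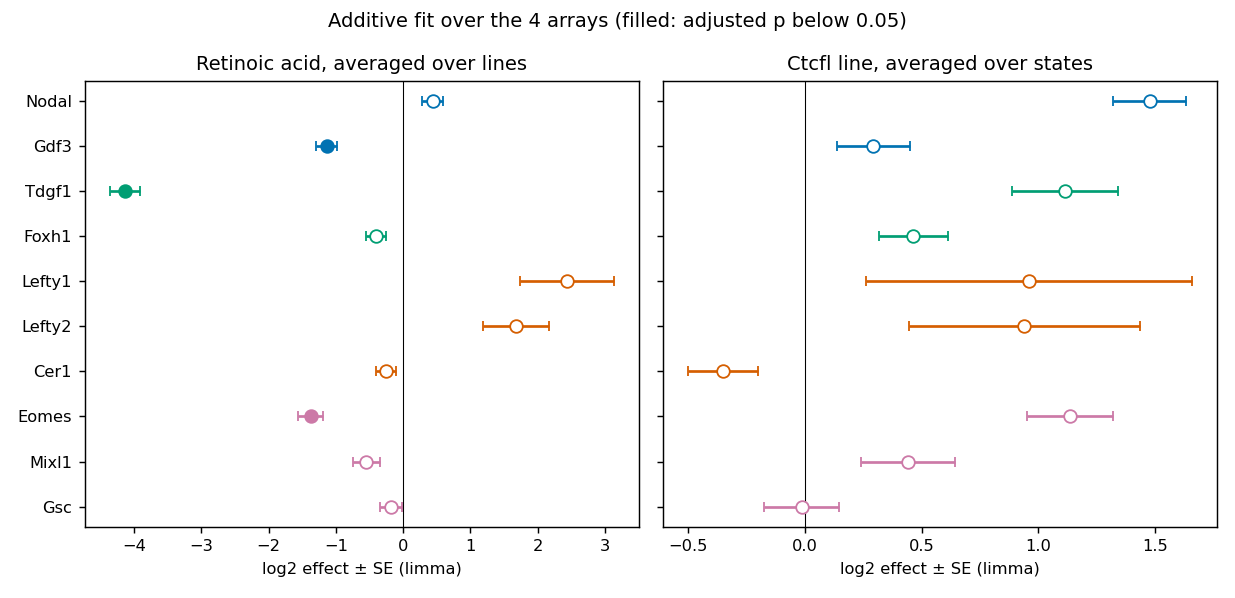
Averaged effects of retinoic acid and of the Ctcfl line on each of the 10 genes (horizontal axis, log2) from the additive limma fit over 4 arrays; bars are ± SE and filled points have an adjusted p below 0.05. Tdgf1, Gdf3 and Eomes are the filled points for retinoic acid, none is filled for the line, and the bars of Lefty1 (SE 0.70) and Lefty2 (SE 0.49) are the widest.

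Counted over the 10 genes, 3 fell with retinoic acid in limma (Tdgf1, Eomes and Gdf3), 0 rose and 7 did not pass, where 2.44% of all genes fell and 4.21% rose. At least 2-fold differences with retinoic acid in wild-type cells were found for 2 genes, Tdgf1 and Eomes, both lower; over all genes 2.62% were lower and 2.58% higher, and Gdf3 lay just short of the limit. In the Ctcfl line 3 of the 10 were at least 2-fold lower (Tdgf1, Eomes and Gdf3) and 2 higher (Lefty1 and Lefty2), beside 1.5% and 3.21% of all genes. The median of the 10 was log2 -0.19 in wild type and -0.37 in the Ctcfl line, beside -0.04 and -0.05 over all genes.

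Between the lines, 3 of the 10 were at least 2-fold higher in the undifferentiated Ctcfl line (Tdgf1, Eomes and Nodal) and 0 lower, where 0.726% of all genes were higher and 1.09% lower. In retinoic acid 3 were higher (Lefty1, Lefty2 and Nodal) and 0 lower, where 0.83% were higher and 0.399% lower. The medians of the 10 were log2 0.44 and 0.58, beside -0.02 in both states over all genes. Nodal was the 1 gene in both sets of 3. The averaged line effect in limma passed for 0 of the 10, and over all genes it passed upwards in 0.0273% and downwards in 0.0164%. At an unadjusted p under 0.05 in limma, 4 of the 10 were higher, Nodal, Eomes, Tdgf1 and Foxh1. By that rule 5.14% of all genes were higher and 4.66% lower. This looser rule is not the one used for calls. For Tdgf1 the average includes its retinoic acid pair, which was not clearly above background. Responses to retinoic acid were at least 2-fold apart, with the Ctcfl line higher, for 2 of the 10, the Lefty genes, and with it lower for 0, beside 1.9% and 0.754% of all genes. The comparisons of lines and of retinoic acid share arrays, so their values are not independent of each other.

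**Figure D4:**
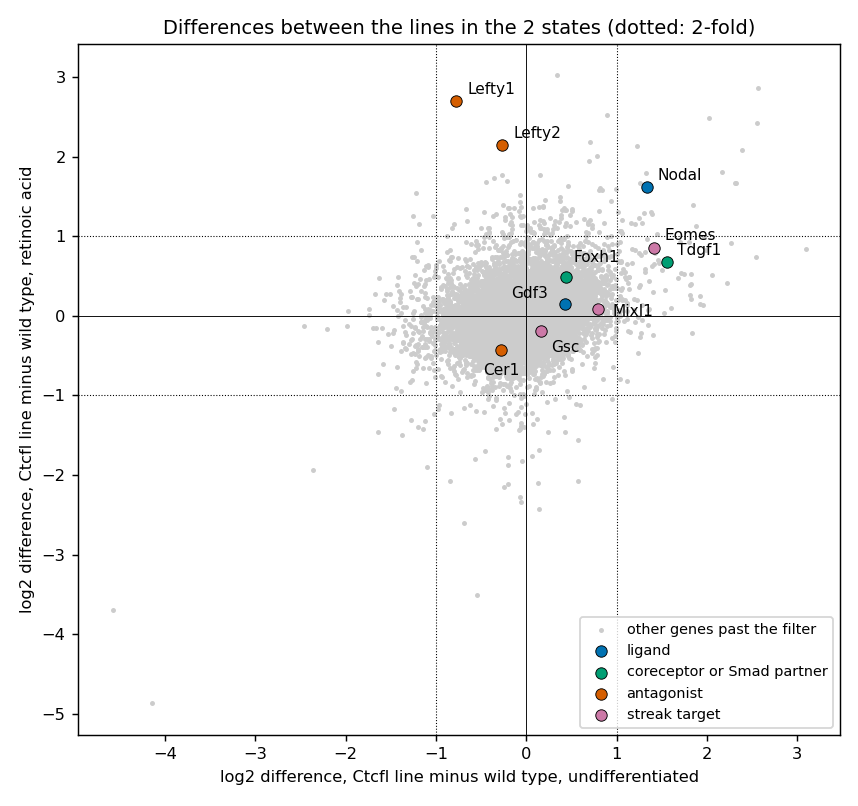
Log2 difference between the Ctcfl line and wild type in undifferentiated cells (horizontal axis) against that in retinoic acid (vertical axis) for 18310 genes (grey) and the 10 genes coloured by role, with dotted lines at 2-fold. Nodal is past 2-fold in both states, Tdgf1 and Eomes in undifferentiated cells, and the Lefty genes in retinoic acid, at 2.70 and 2.14, with values below 0 in undifferentiated cells.

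Lefty2 and Lefty1 are close neighbours on chromosome 1, with 1 coding gene between them, and Mixl1 lies 3 coding genes to the side of Lefty2. The gene order is that of RefSeq on GRCm38.p6, and the neighbours were looked at after the Lefty values had been seen. For the coding genes that follow Lefty1, Tmem63a and Ephx1, the line differences had the same signs as for Lefty1 in both states. With retinoic acid in wild type, however, their differences were log2 -0.40 and -0.81, beside 0.70 for Lefty1. Tmem63a, a membrane channel gene, read 9.82 and 9.41 in wild type without and with retinoic acid, then 9.01 and 10.57 in the Ctcfl line. Ephx1, an epoxide hydrolase gene, read 8.05 and 7.24 in wild type, then 6.91 and 7.61 in the Ctcfl line. As for Lefty1, the Ctcfl line was lower than wild type in the undifferentiated state, by log2 -0.80 and -1.14, and higher in retinoic acid, by 1.16 and 0.37. Their differences of responses of log2 1.96 and 1.51 ranked 20th and 82nd from the top of 18310 genes.

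Among 20 measured coding genes of the segment shown, these 4 were the ones whose responses differed by at least 2-fold. All 4 were higher in the Ctcfl line, as were 1.9% of all genes. The other 16, among them Mixl1 and the 2 measured genes between it and Lefty2 (Acbd3 and Sde2), lay between log2 -0.71 and 0.93. The 0.93 was that of Coq8a, just short of the limit, whose line differences of log2 -0.75 and 0.18 had the signs of Lefty1. Signals of 9130409I23Rik, Ccdc121 and Dnah14 were not clearly above background on any array, so a difference could be missed there. The spans of Lefty1 and of its next 5 genes on either side do not overlap in the annotation.

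**Figure D5:**
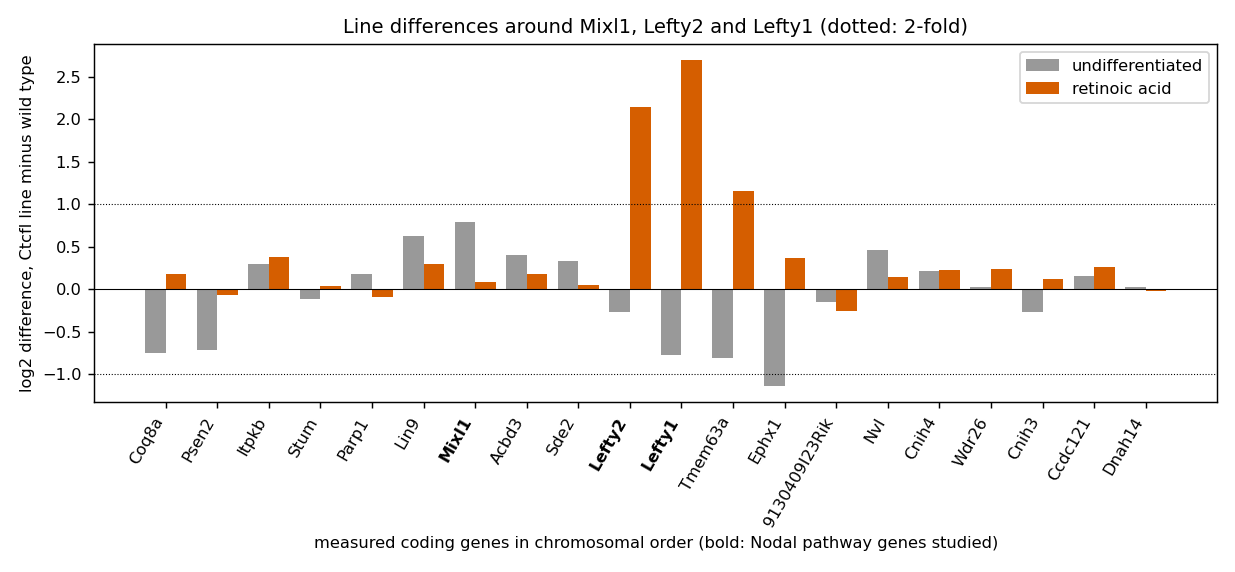
Log2 difference between the Ctcfl line and wild type (vertical axis) for 20 measured coding genes in chromosomal order, with grey bars for undifferentiated cells, orange bars for retinoic acid and dotted lines at 2-fold; 1 array per condition. From Lefty2 to Ephx1 the grey bars are below 0 and the orange bars above it, the latter reaching 2.14, 2.70, 1.16 and 0.37.

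Of the other genes of the Nodal and activin pathway, 22 of 24 listed were measured. In limma 2 of the 22 rose with retinoic acid, 1 fell and 19 were short of the threshold. Over all genes 4.21% rose and 2.44% fell. Inhba (6.40 to 6.68) and Acvr1c (5.83 to 6.23) were not clearly above background on any array, so differences could be missed there. Ski, a repressor of Smad activity, rose 4.41-fold (adjusted p = 0.00126) and Smad3 rose 2.01-fold (adjusted p = 0.0177). Fst, the secreted inhibitor of activin, fell 5.91-fold (adjusted p = 0.00192). The median retinoic acid difference of these 22 genes was log2 0.06 in wild type and 0.14 in the Ctcfl line. With the line 0 of 22 passed in limma. Pmepa1, a membrane inhibitor of Smad signalling that TGF-beta signals induce, was the single gene of the list at least 2-fold apart between lines. It read 8.76 and 7.99 in wild type without and with retinoic acid, then 9.15 and 9.32 in the Ctcfl line, so that the latter was 2.52-fold higher in retinoic acid. Of all genes, 0.83% were at least 2-fold higher in that comparison. Smad7, an inhibitory Smad chosen here after its values were seen, was log2 0.88 and 0.74 higher in the Ctcfl line without and with retinoic acid (adjusted p = 0.249 in limma).

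Other genes of the streak, organizer and early endoderm were listed too, and 15 of 17 were measured. In limma 1 rose with retinoic acid, 1 fell and 13 were short of the threshold, and 0 passed with the line. With retinoic acid 4.21% of all genes rose and 2.44% fell. Mesp1, at 6.26 to 6.83, was not clearly above background on any array. Msgn1 (6.41 to 6.95) and Sox17 (6.78 to 7.04) lay around background, so differences could be missed in these genes. The medians with retinoic acid were log2 0.03 in wild type and -0.20 in the Ctcfl line. Lhx1, a homeobox gene of the organizer and of intermediate mesoderm, rose 3.92-fold (adjusted p = 0.00147), and Otx2, which acts in epiblast and anterior brain as a homeobox factor, fell 10.7-fold (adjusted p = 0.00278). Wnt3, the signal that starts the streak, read 7.22 and 7.37 in wild type without and with retinoic acid, then 8.97 and 7.90 in the Ctcfl line. It was the single gene of the list at least 2-fold apart between the lines, higher in the undifferentiated state, as were 0.726% of all genes. Its highest value was in the undifferentiated Ctcfl line. Evx1, a homeobox gene of the streak, read 7.34 and 7.24 in wild type, then 8.11 and 6.72 in the Ctcfl line. The responses of 3 of the 15 genes were at least 2-fold apart. The Ctcfl line was higher for 1 (Otx2) and lower for 2 (Wnt3 and Evx1), beside 1.9% and 0.754% of all genes. The Evx1 value of 6.72 was not clearly above background, so its difference of responses is a rough figure.

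BMP signals form the other branch of the same family, and 18 of 19 listed genes were measured. In limma 6 rose with retinoic acid, 0 fell and 12 were short of the threshold, beside 4.21% and 2.44% of all genes that rose and fell. An averaged effect above 0 was found for 17 of the 18, and for 42.8% of all genes. Among the 17, Bmp2 (6.37 to 7.32) and Bmpr1b (6.21 to 7.15) were not clearly above background on some arrays. Bmp4, a ligand, rose 4.48-fold (adjusted p = 0.00119), Bmp7, another, rose 3.15-fold (adjusted p = 0.00265), and the target Msx2 rose 3.34-fold (adjusted p = 0.00228). Smad6, the inhibitory Smad of this branch, rose 3.18-fold (adjusted p = 0.00924). The receptor Bmpr2 rose 2.07-fold and the target Id2 1.73-fold (adjusted p = 0.0179 and 0.0303). The median was log2 0.74 in wild type and 0.42 in the Ctcfl line. With the line 0 of 18 passed. The responses of 1 of the 18 were at least 2-fold apart, lower in the Ctcfl line, and 0 were higher, beside 0.754% and 1.9% of all genes. This was Id3, at log2 -1.09, which rose 2.30-fold in wild type and 1.08-fold in the Ctcfl line. Whether the branches differ was not tested.

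Likeness of pattern was measured as the Euclidean distance between profiles over the 4 arrays, each centred on its own mean, among 15561 named genes past the filter. Nearest to Nodal were Ctsf, Kbtbd7 and Zcwpw1 at distances of 0.35, 0.41 and 0.41, all higher in the Ctcfl line in both states, by log2 1.23 to 1.84. Nearest to Lefty1 was Foxq1 at 0.90, then Lefty2 at 0.92 and Cyp26a1 at 1.06. With the mean of its probe sets the response difference of Foxq1 was log2 1.26 in place of 2.09. Nearest to Tdgf1 were Foxi3, Timp4 and Utf1 at 1.13, 1.26 and 1.34. Nearest to Eomes were Trpa1, Vrtn and Cdkn1a at 0.28, 0.32 and 0.36. Within the group, Lefty2 was the 2nd nearest gene to Lefty1, and Gdf3 the 54th nearest to Eomes. Counted from Nodal, Lefty1 and Lefty2 were the 15400th and 10272nd nearest genes. Counted from Lefty1, however, Nodal was the 883rd nearest, at the same distance of 2.60. Distances were not scaled for range, which was 4.17 log2 units for Lefty1 beside a median of 0.445 over all genes. The ranks therefore do not show that Nodal was unusually unlike Lefty1. With 4 points per profile these ranks are a description of these arrays.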

How the data were processed

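Per the labels, RNA was hybridized to Affymetrix arrays, and the authors deposited log2 signals obtained by RMA (background correction, normalization across arrays, summary per probe set) using Affymetrix Expression Console. Transcriptome Analysis Console is named too, per the submitters' processing notes. Their versions, and a genome build, are not given in the sources used here. RMA sets the arrays to a common distribution, so a shift of all genes would not be seen, and low signals are compressed.

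Genes were named from the platform annotation: 23521 of 41345 probe sets had 1 symbol, and a gene was its probe set with the highest mean. Genes with a log2 signal of at least 6 on any of the 4 arrays were kept (18310 of 22180). Arrays correlated at 0.961 to 0.985. Averaged effects came from limma 3.58.1 (lmFit, eBayes; R 4.3.3) with 1 term for retinoic acid and 1 for the line, 1 residual degree of freedom and a prior of 5.49. Two-sided p-values of the 18310 genes were adjusted together (Benjamini-Hochberg) and called below 0.05. The fit was tested on simulated data with additive effects only. That check does not cover genes whose responses differ between the lines, such as Lefty1. Pairs of arrays were compared by log2 difference and a 2-fold limit, with no test.

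The genes, lists, tests and alternatives were chosen with earlier results of these data known, and support nothing on their own. Named outside the 10 were up to 6 genes of each list that passed limma or were 2-fold apart, the 3 nearest profiles of Nodal, Lefty1, Tdgf1 and Eomes (predicted genes, clone names and small RNAs left out), and Ctcfl and Ctcf. Some others, such as Smad7, Id3, gene neighbours and genes near background, were named after their values were seen. Lists of pluripotency, retinoic acid, endoderm, neural, fibroblast and blood markers served as checks. All 7 measured retinoic acid genes rose. For 2 of them, Cyp26a1 and Crabp2, the response was at least 2-fold greater in the Ctcfl line (log2 1.62 and 1.33), beside 1.9% of all genes. For 4 of the 7 the difference of responses was below 0, and 0 were at least 2-fold lower. Its bearing on the Lefty values was not tested. Ctcf did not pass in either test (adjusted p = 0.906 and 0.784 in limma). Listed genes without a value were not analysed here. Alternatives tried were quantile normalization, a filter at log2 7 or none, the mean of probe sets, a variance prior that follows expression, a 2-fold limit on limma calls and a 3-fold limit.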

Additional observations from a re-analysis of the deposited data

Results flagged for a closer look

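The difference between the Ctcfl line and wild type had opposite signs in the 2 states for 3 of the 10 genes. With 1 array per condition, none of these differences was tested. For Lefty1 the undifferentiated lines differed by log2 -0.78 and the retinoic acid lines by 2.70, so that the states differed by 3.47. For Lefty2 it was log2 -0.26 and 2.14, a difference of 2.41, and the first of these compares 2 signals that are not clearly above background and is about the size of the probe-set SD of 0.262. For Gsc it was log2 0.16 and -0.19, a difference of -0.35, and both values were within the probe-set SDs of 0.262 and 0.226.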

How the results depend on the processing

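No paired analysis was possible because each condition has 1 array and the labels give no replicate numbers. Each of the 10 genes has 1 probe set, so the filters and the mean of probe sets could not change its log2 differences. The 2-fold limit on limma calls reuses the main fit. Quantile normalization alone could move a difference between arrays, so many of the values counted next were fixed in advance. Of 313 recomputed values of the 10 genes, 312 kept their direction and their side of the threshold, or moved by less than the probe-set SD. The exception was the line effect of Nodal, which passed in limma with quantile normalization (adjusted p = 0.034; 0.0614 to 0.0951 under the other alternatives run), so that 1 of the 10 genes was called for the line in place of 0. Over all genes, line calls in limma went from 8 to 23 with quantile normalization and to 15 with a variance prior that follows expression, and retinoic acid calls from 1217 to 672 with a 2-fold limit. A 3-fold limit left 338, 285, 49, 48 and 96 genes apart, in place of 952, 862, 333, 225 and 486, for retinoic acid in wild type, retinoic acid in the Ctcfl line, the line in undifferentiated cells, the line in retinoic acid and the difference of responses. With that limit 1 of the 10 genes was apart with retinoic acid in wild type, in place of 2, and 0 between undifferentiated lines, in place of 3. Under a filter at log2 7 Cer1 has no value. Signals near background limit Cer1 on all arrays, Lefty2 in undifferentiated cells and Tdgf1 in retinoic acid.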

Other observations

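Around Nodal on chromosome 10, the 10 nearest measured coding genes had line differences between log2 -0.99 and 0.28 in undifferentiated cells and between -0.27 and 0.43 in retinoic acid, beside 1.34 and 1.62 for Nodal. Pald1, the gene before Nodal, had retinoic acid differences of log2 -1.30 in wild type and -0.93 in the Ctcfl line, where Nodal had 0.30 and 0.58. Next to Tdgf1, Lrrc2 had retinoic acid differences of log2 -0.88 and -0.63, with both retinoic acid values not clearly above background. These neighbours were chosen after the values of the 10 genes were seen.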
